A study of Mus musculus with 12 samples.

Results

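This account follows 10 genes of the NRF2 antioxidant pathway through RNA-seq of J774A.1 cells, a mouse macrophage line. The genes were chosen by name with earlier results of these data known, so counts set beside the share of all genes are descriptions. They are the regulators Nfe2l2 and Keap1, the glutathione genes Slc7a11, Gclc and Gclm, the thioredoxin genes Srxn1 and Txnrd1, and Hmox1, Nqo1 and Sqstm1. All 10 of 10 were found in both count tables, which hold 17544 genes for unstimulated cells and 17874 genes after LPS, 16699 of them in common. All 10 passed the filter on low counts in every comparison. The 12 libraries are in 4 groups of 3, WT and ACAT1 KO cells left unstimulated or given 100 ng/ml lipopolysaccharide (LPS) for 2 hours. LPS is a bacterial ligand of TLR4. ACAT1 KO lines received a Cas9 plasmid with a guide to exon 4 of Acat1, the gene of a mitochondrial acetyl-CoA acetyltransferase, and WT lines received the same plasmid without a guide. Both kinds were grown out from wells seeded with about 5 sorted cells, and the paper describes them as clonal populations. It gives 3 different lines per genotype for the unstimulated cells, so differences between lines enter the spread within a genotype. That the same lines gave the LPS libraries was inferred from the data.

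NRF2, the protein of Nfe2l2, is a transcription factor that KEAP1 holds for degradation in resting cells. Oxidants and electrophiles modify KEAP1, NRF2 then accumulates, and with a small MAF partner it binds antioxidant response elements near genes that make glutathione, reduce thioredoxin and break down heme. Macrophages produce reactive oxygen when they meet bacterial products, and these genes are much studied as part of that response. NRF2 is set largely by protein stability, so the RNA of Nfe2l2 is not a measure of its activity.

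Acat1 was lower in every ACAT1 KO library, 26.8 ± 1.83 CPM (counts scaled to a library of 1000000; SD, n = 3) against 98.8 ± 15.6 CPM in WT cells without stimulation and 19.1 ± 0.743 against 81.9 ± 15.5 CPM after LPS. Library totals ranged from 56948593 to 167280149 counts. All 8 of 8 macrophage markers were listed in both tables, with a summed level from 8785 to 11475 CPM over the libraries. Of 8 genes taken as markers of other cells, only Pecam1 was listed in both tables, at no more than 0.720 CPM, and Col1a1 was listed in the LPS table alone. The LPS genes Tnf, Il1b and Nfkbia rose in both genotypes, Tnf by a log2 fold change of 5.07 in WT and 4.95 in ACAT1 KO cells and Il1b by 6.12 and 7.34. After LPS, Il1b (1.46, adjusted p = 0.0130) and Tnf (0.59, adjusted p = 0.0333) were higher in ACAT1 KO than in WT cells, while Nfkbia differed by -0.0077 (adjusted p = 0.961). The unstimulated libraries of WT lines 1 and 2 and ACAT1 KO line 2 had the 3 lowest totals and carried 0.0165% to 0.0242% of their counts on noncoding genes lying opposite to other exons, against at most 0.00445% in the rest.

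LPS raised 9 of the 10 genes in WT cells, where 29.3% of all genes tested rose, and all 10 in ACAT1 KO cells, where 29.5% rose. Between the genotypes 0 of the 10 passed the adjusted threshold before LPS, against 1.91% of genes. After LPS 3 of the 10, Slc7a11, Srxn1 and Txnrd1, were higher in ACAT1 KO cells, against 5.93% of genes. The levels below are CPM scaled over all 12 libraries by TMM, and each fold change is from edgeR's quasi-likelihood test with p-values adjusted by Benjamini-Hochberg over all genes tested. Genotypes were compared within each state, and LPS with unstimulated cells in a fit of all 12 libraries. CPM are shares of a library's RNA, so less RNA per cell and fewer expressing cells cannot be told apart.

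**Figure D1:**
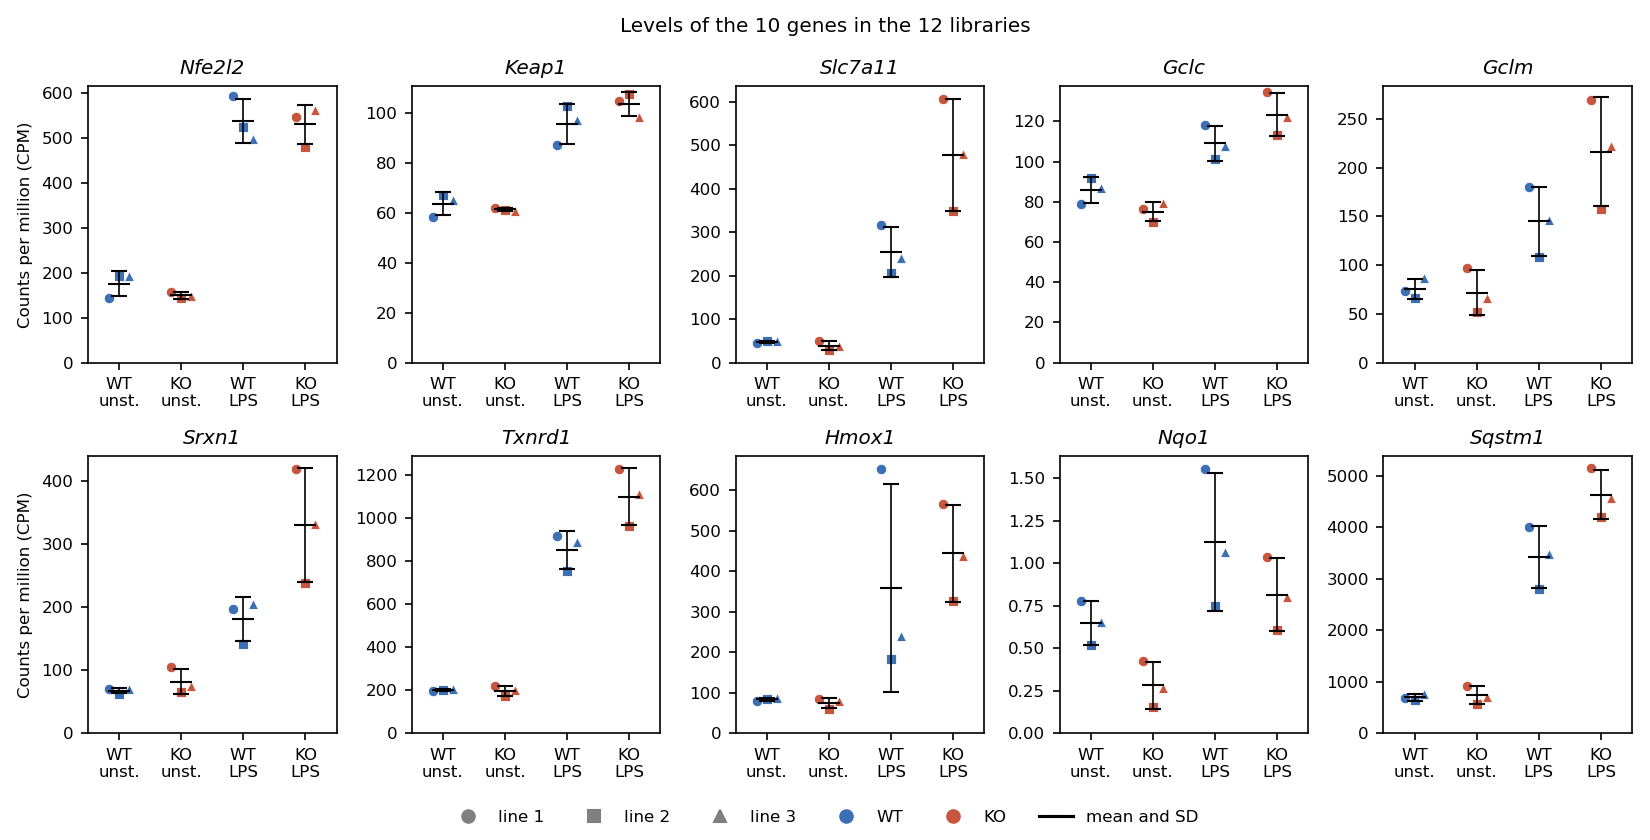
CPM of each gene (vertical axis from 0, its own scale in each panel) in unstimulated and LPS-treated WT (blue) and ACAT1 KO (red) cells, with the line number as the marker and the mean and SD of 3 lines in black. Slc7a11, Srxn1, Txnrd1 and Sqstm1 show every ACAT1 KO line above every WT line after LPS, and Hmox1 shows WT line 1 far above the other WT lines.

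Per length of the merged exons, Sqstm1 was the most abundant of the 10 in every group and Nqo1 the least. In unstimulated WT cells Sqstm1 stood at 206 ± 20.4 RPKM (CPM divided by the exon length in kilobases; SD, n = 3), and Hmox1 and Nfe2l2 followed at 47.6 ± 1.87 and 46.3 ± 7.48 RPKM, which differed by less than their spread. Txnrd1 at 28.2 ± 0.704 RPKM stood above Srxn1 at 23.8 ± 1.55 RPKM and Gclc at 22.8 ± 1.76 RPKM, and the last pair lay within its spread. Keap1 at 13.6 ± 0.983 and Gclm at 12.01 ± 1.64 RPKM were likewise close. Slc7a11 at 3.39 ± 0.172 RPKM and Nqo1 at 0.419 ± 0.0835 RPKM closed the order. After LPS in ACAT1 KO cells Sqstm1 reached 1380.4 ± 143 RPKM and Hmox1, next in order, 253 ± 68.7 RPKM. Below them Txnrd1 at 155 ± 18.9, Nfe2l2 at 139.9 ± 11.6 and Srxn1 at 117 ± 32.2 RPKM overlapped in their spread. In these cells Slc7a11, at 34.4 ± 9.26 RPKM, lay level with Gclm at 34.4 ± 8.95 RPKM and Gclc at 32.7 ± 2.84 RPKM. Genotype and treatment both differ between the groups whose order is given here.

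The core letters of the antioxidant response element, TGACNNNGC and the related TGAGNNNGC, were looked for on both strands of RefSeq promoter windows (GRCm38.p6) that reach from 250 bases before a gene's start to 50 after it. The 8 genes with a window have 10 windows in all, since a gene can have several starts. A match was in 5 of those 10 windows, from 5 genes, and in 27.8% of all 32851 windows and 30.8% of the 13299 windows of genes in both tables. Hmox1 and Gclc had no window. The matches that lie before the start are shown here. Their genes include the 3 that were higher in ACAT1 KO cells after LPS, and also Gclm and Nfe2l2, which did not pass. Each is printed 5′ to 3′ on the strand of its gene with the matching letters in capitals, and a match on the opposite strand reads as the reverse complement.
Srxn1, first match, chr2:152105346-152105394, gene on the plus strand: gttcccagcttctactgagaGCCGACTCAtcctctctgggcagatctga
Srxn1, second match, chr2:152105459-152105507, gene on the plus strand: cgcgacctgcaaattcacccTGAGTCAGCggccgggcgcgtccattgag
Slc7a11, chr3:50443682-50443730, gene on the minus strand: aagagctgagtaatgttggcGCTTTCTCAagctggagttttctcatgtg
Gclm, chr3:122245403-122245451, gene on the plus strand: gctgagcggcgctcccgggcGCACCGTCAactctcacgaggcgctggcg
Txnrd1, another start of the gene, chr10:82859094-82859142, gene on the plus strand: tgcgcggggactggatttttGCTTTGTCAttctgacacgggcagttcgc
Nfe2l2, chr2:75704875-75704913, gene on the minus strand: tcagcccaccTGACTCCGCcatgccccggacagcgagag
The second match of Srxn1 also holds TGAGTCA, letters of the AP-1 motif, which the searched pattern can overlap. The windows of Keap1, Nqo1 and Sqstm1 held no match, nor did the windows at the other starts of Txnrd1. These letters are a description of the windows and show neither binding nor use.

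Nfe2l2, which encodes NRF2, lies on chromosome 2 from 75675513 to 75704641. Without stimulation it stood at 143, 193 and 192 CPM in WT lines 1 to 3 and at 158, 143 and 149 CPM in ACAT1 KO lines 1 to 3. After LPS it stood at 594, 524 and 498 CPM in the WT lines and at 548, 481 and 564 CPM in the ACAT1 KO lines. The genotypes overlapped in both states, and every LPS library lay above every unstimulated one. Nfe2l2 rose by a log2 fold change of 1.61 (standard error, SE, 0.116, adjusted p = 2.47e-07) in WT cells and of 1.83 (SE 0.117, adjusted p = 8.06e-08) in ACAT1 KO cells, a 3.06-fold and a 3.55-fold rise. Between the genotypes after LPS its log2 difference had a 95% confidence interval from -0.20 to 0.20 (adjusted p = 0.999).

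Keap1, whose protein holds NRF2 for degradation, lies on chromosome 9 from 21229730 to 21239361. It stood at 58.4, 67.2 and 65.2 CPM in WT lines 1 to 3 and at 62.1, 61.3 and 60.9 CPM in ACAT1 KO lines without stimulation. After LPS the lines were at 87.1, 103 and 97.4 CPM in WT and 105, 108 and 98.4 CPM in ACAT1 KO cells. LPS libraries all lay above the unstimulated ones, while the genotypes overlapped in both states. Its rise was a log2 fold change of 0.59 (SE 0.0719, adjusted p = 2.08e-05) in WT and 0.75 (SE 0.0720, adjusted p = 2.31e-06) in ACAT1 KO cells. Of its exon bases, 10.9% lie in exons of Gm16754 on the other strand, and the sources used here do not say whether counting used strand.

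Slc7a11 encodes the transport subunit of the cystine/glutamate exchanger, which brings in cystine for glutathione synthesis, and lies on chromosome 3 from 49892526 to 50443614. Without stimulation it was at 44.4, 48.5 and 48.7 CPM in WT lines 1 to 3 and at 49.8, 29.2 and 37.6 CPM in ACAT1 KO lines 1 to 3. After LPS it was at 317, 207 and 240.0 CPM in the WT lines and at 607, 349 and 479 CPM in the ACAT1 KO lines. The genotypes overlapped before LPS and parted after it, with the lowest ACAT1 KO line above the highest WT line. Its rise with LPS had the highest value of the 10 genes in both genotypes, 5.39-fold (95% confidence interval 3.78 to 7.69) in WT and 12.3-fold (8.47 to 17.8) in ACAT1 KO cells. In WT cells that interval overlapped the interval of Sqstm1, 3.79 to 6.47. After LPS it was 1.91-fold higher in ACAT1 KO than in WT cells, a log2 fold change of 0.93 (SE 0.213, adjusted p = 0.0257). Before LPS the log2 difference was -0.27 (SE 0.176, adjusted p = 0.453).

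Gclc and Gclm encode the catalytic and the modifier subunit of glutamate-cysteine ligase, the enzyme of the rate-limiting step of glutathione synthesis. Gclc, on chromosome 9 from 77754535 to 77794485, was at 78.8, 91.9 and 86.9 CPM in unstimulated WT lines and at 76.4, 69.8 and 79.2 CPM in unstimulated ACAT1 KO lines. With LPS the lines reached 118, 101 and 108 CPM in WT and 134, 113 and 122 CPM in ACAT1 KO lines. All LPS libraries lay above all unstimulated ones, with overlap between the genotypes. It rose by a log2 fold change of 0.35 (SE 0.0858, adjusted p = 0.00445) in WT cells, the lowest value of the 10 there. In ACAT1 KO cells it rose by 0.71 (SE 0.0861, adjusted p = 1.74e-05), which lay within 1 SE of the 0.75 of Keap1. The WT rise did not pass under upper-quartile normalization (adjusted p = 0.188) or without the lines numbered 1 (adjusted p = 0.0867).

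Gclm, on chromosome 3 from 122245557 to 122270732, was at 73.3, 66.5 and 86.8 CPM in unstimulated WT lines and at 96.9, 51.8 and 66.2 CPM in unstimulated ACAT1 KO lines. With LPS the lines reached 180.0, 108 and 146 CPM in WT and 269.7, 158 and 222 CPM in ACAT1 KO lines. WT line 1 after LPS lay above ACAT1 KO line 2, so the genotypes overlapped although ACAT1 KO lines 1 and 3 were the highest. The log2 difference after LPS was 0.60 (SE 0.221, adjusted p = 0.107), not past the threshold. Gclm rose with LPS 1.92-fold in WT (adjusted p = 0.00726) and 3.02-fold in ACAT1 KO cells (adjusted p = 1.83e-04). Of its exon bases, 4.71% lie in exons of Gm17494 on the other strand.

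Srxn1 encodes sulfiredoxin, which restores overoxidized peroxiredoxins, and lies on chromosome 2 from 152105516 to 152111376. It stood at 69.1, 62.2 and 70.3 CPM in unstimulated WT lines and at 104, 65.8 and 74.97 CPM in unstimulated ACAT1 KO lines. After LPS it stood at 197, 141 and 205 CPM in WT and at 419.6, 238 and 332 CPM in ACAT1 KO lines. The groups overlapped before LPS, when the log2 difference was 0.29 (SE 0.163, adjusted p = 0.386), and parted after it. It was 1.84-fold higher in ACAT1 KO than in WT cells after LPS, a log2 fold change of 0.88 (SE 0.210, adjusted p = 0.0289), and rose with LPS 2.70-fold in WT and 4.04-fold in ACAT1 KO cells.

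Genes of chromosome 2 from 90 Mb on, a boundary chosen with these data known and beyond which Srxn1 lies, were higher as a group in ACAT1 KO cells, with a median log2 fold change of 0.29 over 709 genes without stimulation and of 0.28 over 712 genes after LPS, when 36.5% of them passed the threshold as higher. Less that median, the value of Srxn1 after LPS was 0.60, a setting chosen after the data were seen and given with no test. The median difference between the genotypes' LPS responses in that segment was -0.04. Its part in the Srxn1 result was not tested. Nfe2l2 lies on the same chromosome before that segment.

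Txnrd1 encodes cytosolic thioredoxin reductase, which returns thioredoxin to its reduced form with NADPH, and lies on chromosome 10 from 82833951 to 82897712. It was at 195, 199.9 and 205 CPM in unstimulated WT lines and at 218, 172 and 201 CPM in unstimulated ACAT1 KO lines. In LPS libraries it reached 918, 753 and 891 CPM in WT and 1229.6, 963 and 1112 CPM in ACAT1 KO lines. Before LPS the WT lines lay inside the range of the ACAT1 KO lines, and after LPS the ranges parted. It was 1.31-fold higher in ACAT1 KO cells after LPS, a log2 fold change of 0.39 (SE 0.109, adjusted p = 0.0492), the closest of the 3 calls to the threshold. Its LPS rise was 4.27-fold in WT (adjusted p = 2.52e-08) and 5.59-fold in ACAT1 KO cells (adjusted p = 6.16e-09).

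Hmox1 encodes heme oxygenase 1, which opens heme to biliverdin, carbon monoxide and iron, and lies on chromosome 8 from 75093621 to 75100589. It was at 79.6, 84.8 and 85.7 CPM in unstimulated WT lines and at 83.6, 60.3 and 79.6 CPM in unstimulated ACAT1 KO lines. In LPS libraries it reached 654, 182 and 239 CPM in WT and 567, 327 and 438 CPM in ACAT1 KO lines. WT line 1 was the highest of all 12 libraries, above every ACAT1 KO line, while WT lines 2 and 3 lay below every ACAT1 KO line. With all lines the log2 difference between genotypes after LPS was 0.33 (SE 0.439, 95% confidence interval from -0.68 to 1.34, adjusted p = 0.651). Without WT line 1 it was 1.10 (adjusted p = 0.0191). With any other single library left out it was from 0.017 to 0.51 and did not pass. Without the lines numbered 1 of both genotypes, a setting chosen after the data were seen, it was 0.88 (adjusted p = 0.0287). Hmox1 rose with LPS 4.30-fold (95% confidence interval 2.36 to 7.81) in WT and 5.96-fold (3.24 to 10.9) in ACAT1 KO cells. Its log2 rise in WT cells was 2.10, and 1.34 (adjusted p = 2.49e-04) without WT line 1 after LPS.

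Nqo1 encodes a quinone reductase that is among the best known NRF2 targets, and lies on chromosome 8 from 107388225 to 107403206. These cells had little of it, with 14 to 161 counts per library. It was at 0.778, 0.519 and 0.655 CPM in unstimulated WT lines and at 0.427, 0.152 and 0.264 CPM in unstimulated ACAT1 KO lines. The LPS libraries had it at 1.56, 0.750 and 1.06 CPM in WT and at 1.04, 0.608 and 0.799 CPM in ACAT1 KO lines. Every unstimulated ACAT1 KO line lay below every unstimulated WT line, and the groups overlapped after LPS. The log2 difference before LPS was -1.19 (SE 0.381, adjusted p = 0.160), which did not pass, and after LPS it was -0.45 (SE 0.295, adjusted p = 0.345). Nqo1 rose with LPS 2.84-fold in ACAT1 KO cells (adjusted p = 0.00404). In WT cells its log2 fold change was 0.78 (SE 0.361, adjusted p = 0.0831), and 0.75 (adjusted p = 0.00927) with the line number as a block.

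Sqstm1 encodes p62, an adaptor that hands ubiquitinated cargo to autophagy and binds KEAP1, and lies on chromosome 11 from 50199366 to 50210827. It was at 676, 632 and 767 CPM in unstimulated WT lines and at 915, 571 and 707 CPM in unstimulated ACAT1 KO lines. After LPS it was at 4007, 2798 and 3475 CPM in WT and at 5144, 4188 and 4566 CPM in ACAT1 KO lines. The genotypes overlapped before LPS, and after it every ACAT1 KO line lay above every WT line. The log2 difference after LPS was 0.46 (SE 0.137, adjusted p = 0.0600), short of the threshold. Sqstm1 rose 4.95-fold in WT (adjusted p = 3.92e-07) and 6.34-fold in ACAT1 KO cells (adjusted p = 1.18e-07). Of its exon bases, 17.3% lie in exons of Mrnip on the other strand.

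**Figure D2:**
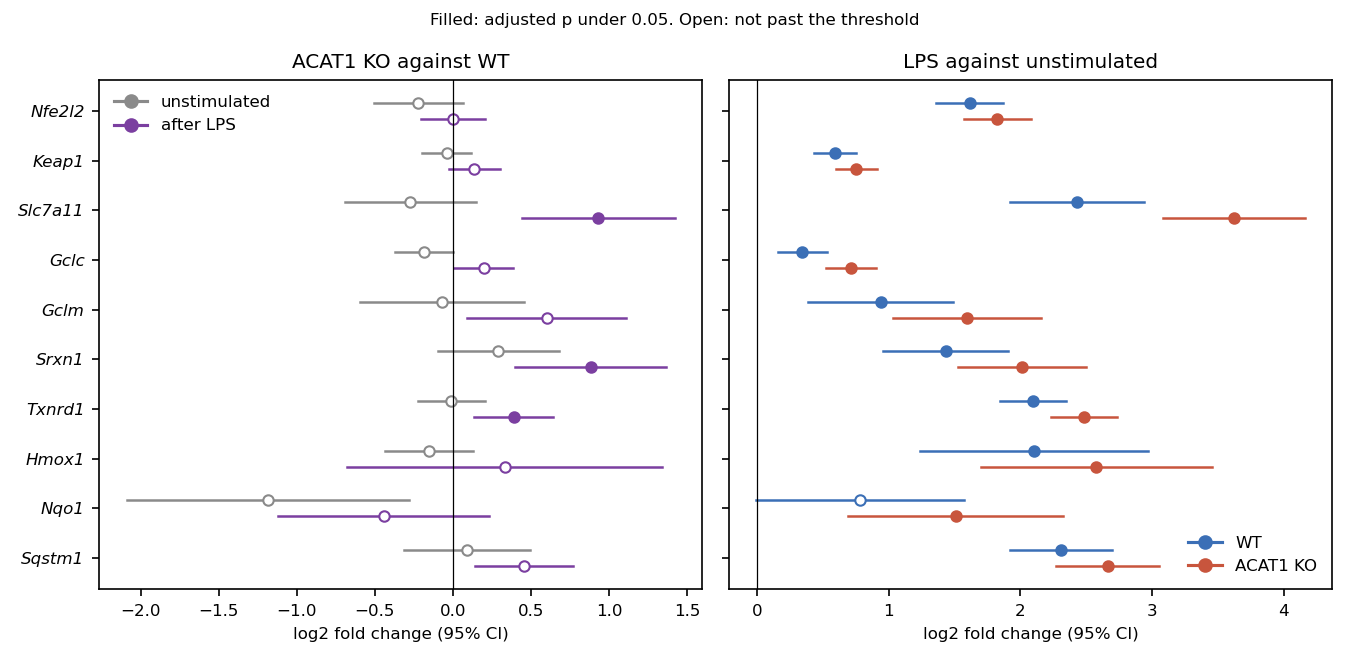
Log2 fold changes (horizontal axis) with 95% confidence intervals as lines, for ACAT1 KO against WT without stimulation and after LPS (left) and for LPS against unstimulated cells in each genotype (right), where filled points passed an adjusted p of 0.05. On the left only Slc7a11, Srxn1 and Txnrd1 after LPS are filled, and on the right only Nqo1 in WT cells is open.

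Set against all genes, 0 of the 10 genes passed the adjusted threshold between the genotypes without stimulation, where 1.91% of 16440 genes did. At an unadjusted p of 0.05 only Nqo1 passed, as lower, where 9.93% of genes did, and by DESeq2 and limma-voom 0 of the 10 passed the adjusted threshold. The median log2 difference of the 10 was -0.11, against 0.0035 for all genes. Nqo1 was the only member whose groups did not overlap there, where 25.9% of genes had groups that did not. The spread within groups was wide in this state, with a common biological coefficient of variation of 0.285 against 0.108 after LPS. Deviations from group means were also shared across the genotypes here, although no line is. Over genes of at least 1 CPM, ACAT1 KO line 2 correlated with WT lines 1, 2 and 3 by 0.58, 0.75 and -0.86. Its library and those of WT lines 1 and 2 were the ones rich in opposite-strand counts. Line and library effects cannot be told apart, and their parts were not tested.

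After LPS, 3 of the 10 genes passed as higher and 0 as lower in ACAT1 KO cells, where 5.93% of 16483 genes passed as higher and 15.1% in either direction. At an unadjusted p of 0.05, Sqstm1, Gclm and Gclc passed as well, making 6 of 10 against 14.1% of genes. The median of the 10 was 0.36, against -0.0041 for all genes, and 4 of the 10 had ACAT1 KO lines all above WT lines, against 15.6% of genes. With 3 lines a group an exact permutation test, two-sided, allows no p below 0.10, the value those 4 had. The count of 3 moved to 0 without ACAT1 KO line 1, ACAT1 KO line 3 or WT line 2, to 1 without WT line 3 and to 5 without WT line 1. Over the 6 fits that left out a library, Slc7a11 had a log2 fold change of at least 0.73 and passed in 2, Srxn1 of at least 0.68 and passed in 3, and Txnrd1 of at least 0.30 and passed in 2.

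With LPS, Nqo1 in WT cells was the only one of the 10 genes that did not pass in both genotypes, in tests over 16535 genes. The median log2 fold change was 1.52 in WT and 1.92 in ACAT1 KO cells, against -0.02 and -0.03 for all genes. In ACAT1 KO cells all 10 passed in each of the 22 alternatives. Slc7a11, Sqstm1, Hmox1 and Txnrd1 had the highest values and Keap1 and Gclc were among the lowest in both genotypes, which were fitted together and share their estimate of spread. The place of Hmox1 in WT cells rested on WT line 1 after LPS, without which its log2 rise of 1.34 lay below those of Nfe2l2 at 1.54 and Srxn1 at 1.37.

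The LPS response of each of the 10 genes was larger in ACAT1 KO than in WT cells, by a log2 difference of responses from 0.16 for Keap1 to 1.19 for Slc7a11, where 41.4% of all genes had a positive difference. The test of that difference passed for 0 of the 10, as it did for only 0.187% of 16535 genes. At an unadjusted p of 0.05, Slc7a11 (1.19, SE 0.316, adjusted p = 0.176), Gclc (0.37, SE 0.121, adjusted p = 0.310) and Txnrd1 (0.39, SE 0.154, adjusted p = 0.461) passed, against 3.28% of genes in that direction. By DESeq2, Slc7a11 alone passed the adjusted threshold. In that DESeq2 fit the difference was not shown for the other genes. In the edgeR fit above it was shown for 0 of the 10, and the 95% confidence interval for Hmox1 reached from -0.70 to 1.64.

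The libraries numbered alike in the unstimulated and LPS groups of a genotype deviated together from their group means. Correlations were from 0.14 over genes of at least 1 CPM, with 0.0913 as the weakest over all genes tested. The number was therefore taken to mark 1 line in both states, which the labels do not state. Unstimulated libraries of different genotypes, which share no line, correlated by up to 0.75, so such correlations cannot show that a line is shared. With the line as a block, the difference of response for Slc7a11 was 1.21 (adjusted p = 0.0147) and passed. That for Srxn1 was 0.59 (adjusted p = 0.0513), against 0.58 (adjusted p = 0.636) without the block. With another term added for the 3 unstimulated libraries rich in opposite-strand counts, chosen after the data were seen, Slc7a11, Srxn1 (0.52, adjusted p = 0.0263) and Gclm (0.73, adjusted p = 0.0431) passed.

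Taken line by line in this way, the log2 rise of Slc7a11 with LPS was 3.61, 3.58 and 3.67 in ACAT1 KO lines 1 to 3 and 2.83, 2.09 and 2.30 in WT lines 1 to 3. That of Txnrd1 was 2.49, 2.48 and 2.47 in the ACAT1 KO lines and 2.24, 1.91 and 2.12 in the WT lines. The ACAT1 KO lines of both genes rose by nearly the same amount although their levels differed, with an SD of 0.0479 for Slc7a11 and 0.0121 for Txnrd1, while the WT lines had an SD of 0.384 and 0.165. Counting error alone gives an SD of 0.0236 for Slc7a11 and 0.0107 for Txnrd1 in the ACAT1 KO lines, so the spread of Txnrd1 there was close to it. These were the genes with the smallest SD in the ACAT1 KO lines, where Sqstm1 had 0.192. Keap1 (0.0590 against 0.0214) and Nqo1 (0.315 against 0.237) spread more in the ACAT1 KO than in the WT lines, unlike the other genes. Hmox1 had the widest spread of rises among WT lines, 3.04, 1.10 and 1.48, against 2.76, 2.44 and 2.46 in the ACAT1 KO lines. The rise of every ACAT1 KO line exceeded that of every WT line for 7 of the 10 genes, against 6.88% of all genes. The exceptions were Nfe2l2, Hmox1 and Sqstm1, each with WT line 1 above at least 1 ACAT1 KO line.

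**Figure D3:**
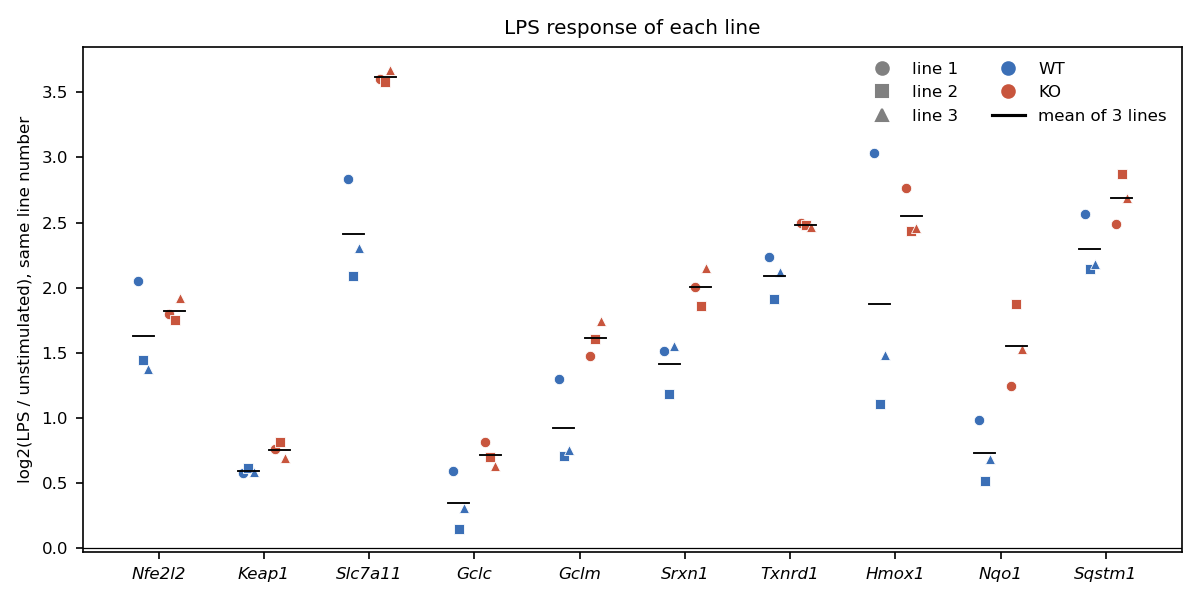
Log2 ratio of the LPS to the unstimulated level of the same line number (vertical axis) for each gene, in WT (blue) and ACAT1 KO (red) lines, with the mean of 3 lines as a black bar. The ACAT1 KO lines of Slc7a11 sit from 3.58 to 3.67, above the WT lines at 2.09 to 2.83, and WT line 1 is the highest point of Hmox1.

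The target genes also moved together between lines of the same group. ACAT1 KO lines fell in the order line 1, line 3, line 2 for 8 of the 10 genes without stimulation, an order held by 23.2% of all genes, and for 8 of the 10 after LPS, held by 17.0%. WT lines after LPS took the same order for 7 of the 10, where 19.8% of genes did. In unstimulated WT lines no order held for more than 3 of the 10. All 10 genes lay above the group mean in ACAT1 KO line 1 in both states, and the median gene deviated by a log2 value of 0.27 before and 0.26 after LPS, against -0.29 and -0.28 in ACAT1 KO line 2. In WT cells after LPS the median deviation was 0.19 in line 1 and -0.28 in line 2. The median of all genes deviated by at most 0.012 in any library.

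**Figure D4:**
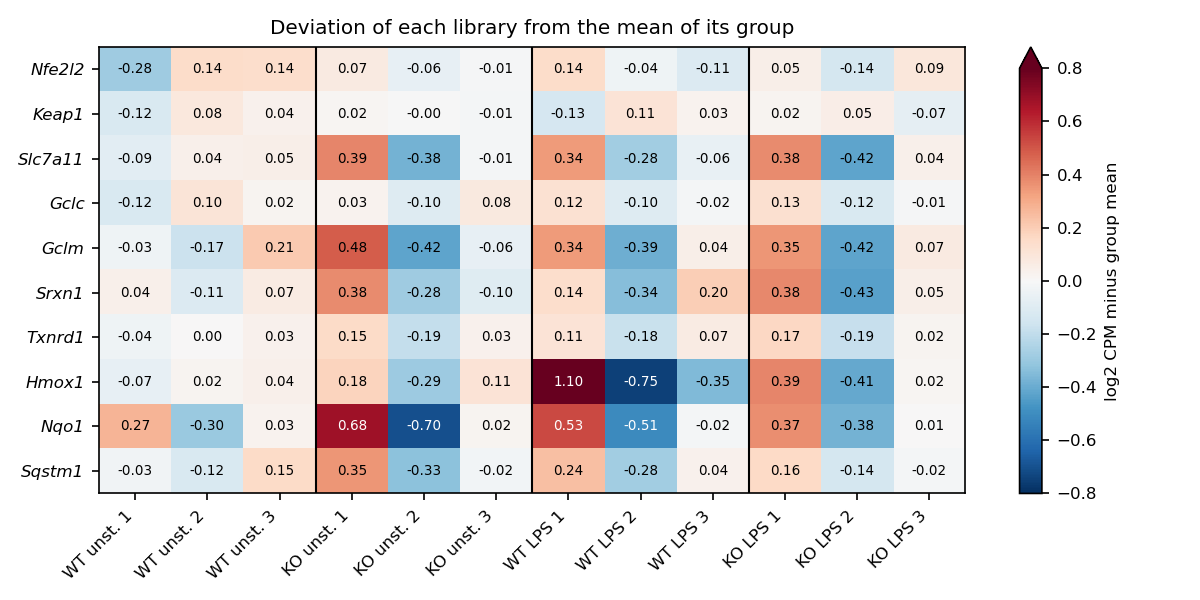
Log2 CPM of each gene (rows) in each of the 12 libraries (columns) minus the mean of its group, printed in the cells and shown as colour from blue, below the mean, to red, above it. The libraries numbered 1 of both ACAT1 KO groups and of WT after LPS are mostly red and those numbered 2 mostly blue, with Keap1 and Gclc as the palest rows.

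Over the 12 deviations from group means, each group sharing its mean, Gclm and Sqstm1 correlated with a Pearson r of 0.96, Slc7a11 and Txnrd1 with 0.95, and Keap1 and Hmox1 with -0.63. These are descriptions over 12 libraries, of which pairs were taken to share a line. Over all 12 libraries, among 11961 genes with a mean of at least 1 CPM, the log2 CPM pattern most like that of Nfe2l2 was that of Elavl1 (Pearson r = 0.998), Utp15 (0.997) and 9130019O22Rik (0.995). The patterns most like that of Hmox1 were those of Plin2 (0.986), Slc25a37 (0.978) and Frrs1 (0.975). These values run over both states, so the difference between LPS and unstimulated cells enters them.

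Lists of 57 further genes of the same pathways, also chosen with earlier results of these data known, were followed. Of these, 55 passed the filter in each comparison, all but Ggt1 and Gsta4. Without stimulation 0 of the 55 passed between the genotypes, where 1.91% of all genes did. After LPS, 11 of the 55 were higher and 0 lower in ACAT1 KO cells, against the 5.93% of all genes that were higher, and their median log2 difference was 0.08. Prdx5, a peroxiredoxin, was higher by 0.48 (adjusted p = 0.00373), Cbr1, a carbonyl reductase, by 0.73 (adjusted p = 0.00899), Blvra, a biliverdin reductase, by 0.35 (adjusted p = 0.00960), and Map1lc3a, of the LC3 family that coats autophagosomes, by 0.70 (adjusted p = 0.0109). Blvra and Map1lc3a lie on the distal part of chromosome 2 described above, as do 3 of the 11 in all.

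By list, the genes higher in ACAT1 KO cells after LPS were 1 of 7 regulators, 1 of 10 glutathione genes, 3 of 13 thioredoxin and peroxide genes, 3 of 8 heme and iron genes, 2 of 9 NADPH and quinone genes and 1 of 8 selective autophagy genes. LPS raised 20 and lowered 8 of the 55 in WT cells, where 29.3% of all genes were raised and 28.0% lowered. In ACAT1 KO cells it raised 23 and lowered 8, where 29.5% were raised and 31.2% lowered. Sod2, the mitochondrial superoxide dismutase, rose by a log2 fold change of 2.74 in WT and 2.94 in ACAT1 KO cells, and the autophagy receptor gene Optn by 1.74 and 1.70. Abcc1, a transporter of glutathione conjugates, rose by 0.90 and 1.09, and Txnip, whose protein inhibits thioredoxin, fell by 1.25 and by 1.41. The test of the difference in LPS response passed for 0 of the 55, and for 0.187% of all genes.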

How the data were processed

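The 12 RNA-seq libraries were assigned to 4 groups by the genotype and treatment in their labels, which also number the replicates. Per the paper and the submitters' processing notes, reads were trimmed with Trimmomatic 0.33, aligned to GRCm38 with HISAT2, quantified with StringTie and tested with Ballgown. Raw counts, whole numbers for each gene, were deposited by the authors in separate tables for unstimulated and LPS-treated cells. The step that gave whole counts and its strand setting are not given in the sources used here, and the kit was directional. Not used here were 12 further columns, in which the authors gave log2 values of each library, and their comparison columns (log2 fold change, score and p-values). Repeated entries of a gene were removed, 59 and 57 in the 2 tables. No gene was listed with fewer than 4 counts in more than 1 library of a table.

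The tests on these counts used edgeR 4.0.16 and R 4.3.3 (filterByExpr, TMM, quasi-likelihood test, two-sided, Benjamini-Hochberg adjusted p under 0.05). Genotypes were compared within each state, and LPS and its interaction with genotype in a fit of 4 group means over all 12 libraries. Log2 CPM used a prior count of 2. RPKM used the merged exon length in the GENCODE M21 annotation of GRCm38, which also gave coordinates. The paper describes the lines as clonal populations, so p-values of the genotype comparisons within a state measure the spread between lines. The fit of all 12 libraries had no term for the line, so its p-values treat libraries taken to share a line as independent. At totals of 56948593 to 167280149 counts, counting error (the square root of the counts) was at most 1.63% of a group's level for 9 of the 10 genes and 9.53% to 20.0% for Nqo1. For Keap1 in unstimulated ACAT1 KO cells it was 1.20%, against an SD between lines of 1.01%. The scripts were tested on simulated data. Alternatives were DESeq2 1.42.0, limma-voom (limma 3.58.1), upper-quartile normalization and relative log expression, leaving out the filter or asking for 10 counts in all libraries, robust dispersion, other sets of libraries in the fit, blocking on the replicate number, and fits that dropped 1 library each.

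Deviations from the group means of libraries with the same number in both states of a genotype correlated from 0.14 to 0.45 over 11961 genes with a mean of at least 1 CPM (0.0913 to 0.31 over all 16535 genes tested), and those with different numbers from -0.34 to 0.0977. The number was therefore taken to pair the states, as an inference from the data. Unstimulated libraries of different genotypes, which share no line, correlated by up to 0.75, so such values cannot show that a line is shared. The genes followed, the pathway lists and the tests were chosen with earlier results of these data known. The genes named are the 10 members, at most 4 of the pathway lists per comparison with the smallest p among those past the adjusted threshold, Acat1, Tnf, Il1b and Nfkbia as checks, and the 3 genes most like Nfe2l2 and Hmox1 by Pearson correlation. The marker genes were named in a list of their own. RefSeq promoter windows of GRCm38.p6 matched 8 of the 10 genes by symbol.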

Additional observations from a re-analysis of the deposited data

Results flagged for a closer look

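The response of Slc7a11 to LPS differed between the genotypes in the test of that difference with the line as a block, by a log2 value of 1.21 (adjusted p = 0.0147 in edgeR). The rise of every ACAT1 KO line exceeded that of every WT line, in 3 of 3 lines. Without the block the value was 1.19 (adjusted p = 0.176), which did not pass. Over the 22 alternatives the adjusted p ranged from 0.00450 to 0.393. The difference passed in 3 of those 22, and in 0 of the 12 that left out a library. The pairing of states by line number rests on the data and not on the labels. Groups of 3 lines are too small for the test of single outlying libraries that is used for larger groups, so the high Hmox1 level of WT line 1 after LPS was not tested.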

How the results depend on the processing

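Of the 500 tested values of single genes under settings other than leaving out a library, 481 kept their direction and their side of the threshold, and of the 480 with a library left out, 455 did. For ACAT1 KO against WT after LPS, the 3 genes past the threshold became 6 with the replicate number as a block across genotypes and 0 to 5 with a library left out. In that block, a number joins a WT and an ACAT1 KO line, which are different lines. Over genes of at least 1 CPM, same-numbered deviations correlated from -0.11 to 0.17 after LPS and from -0.41 to 0.75 without stimulation. For most of the 10 genes the lines took the same order in both genotypes after LPS, as given above. These values cannot show whether a number marks shared handling, which was not tested. DESeq2 gave 4 and robust dispersion 2. Omitting the lines numbered 1 gave 2, Slc7a11 and Hmox1. For the difference in LPS response, the 0 genes became 1 by DESeq2, 1 with the line as a replicate block and 3 with that block and the term for the other strand. The block took LPS in WT cells from 9 to 10 genes and left the other counts at 0 without stimulation and 10 in ACAT1 KO cells. The cause of these moves was not tested.

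The values that turned direction had all missed the threshold as reported. Without stimulation, with a library left out, Keap1 ranged from -0.11 to 0.0011, Gclm from -0.36 to 0.12, Txnrd1 from -0.10 to 0.078 and Sqstm1 from -0.12 to 0.24, and Sqstm1 was -0.046 with the other-strand term. After LPS, Nfe2l2 was -0.00026 by limma-voom, -0.021 with all 12 libraries and from -0.044 to 0.076 with a library left out.

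Upper-quartile normalization moved the median of all genes to -0.23 for LPS in WT and -0.17 in ACAT1 KO cells, with 35.2% and 37.4% of calls higher, and left 8 of the 10 genes higher in WT cells. Over all genes, calls between genotypes without stimulation ranged from 151 to 1721, and from 7 to 522 with a library left out. After LPS they ranged from 1410 to 3098, and from 867 to 2245 with a library left out. For the difference in response they ranged from 5 to 457, with 288 under the line block. Depth limits Nqo1 most, with as few as 14 counts in a library.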
